A study of Mus musculus with 6 samples.

Results

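The heat-shock proteins and DnaJ co-chaperones are 70 of the 24062 genes in a table of normalised counts from sorted mouse muscle cells, and 29 of them also appear among the 4939 genes of a second table, which gives CPM, counts scaled to the size of the library. They were chosen by symbol alone: the Hspa genes and Hsph1, the Hspb genes, Hspd1 and Hspe1, the Hsp90 genes, and the Dnaja, Dnajb and Dnajc genes. The study compared cells marked by Twist2 with satellite cells, the muscle stem cells marked by Pax7, right after sorting from adult hind limb muscle of C57BL/6 mice. Tw2pos and Tw2neg are the tdTomato-positive and tdTomato-negative cells of Tw2-CreERT2/+;R26-tdTO+ mice, with 2 libraries each. Pax7pos and Pax7neg are the same fractions of Pax7-CreERT2/+;R26-tdTO+ mice, with 1 library each. Both lines carry a Cre recombinase that becomes active only under tamoxifen, driven from the Twist2 or the Pax7 locus, and the red reporter from the Rosa26 locus. All mice received 3 tamoxifen treatments, 10 days before the muscle was taken. A negative fraction holds every cell left unlabelled, so it is a mixture of cell types. Whether replicate libraries stem from different mice is not in the labels, so each p-value speaks of the variation among these libraries alone, which may be technical. In such bulk samples, fewer cells of a type and less RNA per cell cannot be told apart.

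Chaperones bind unfolded proteins and help them fold, and they are encoded by several families. Hsp70 proteins bind and release a client with ATP, DnaJ proteins bring clients to Hsp70 and start its ATP hydrolysis through their J domain, and Hsp90 proteins finish the folding of kinases and receptors. Small heat-shock proteins hold unfolded proteins without ATP. The Hspd1 and Hspe1 proteins form the folding chamber of mitochondria. Heat, dissociation of a tissue and other stress raise the cytosolic members through heat-shock factor Hsf1, which binds inverted repeats of GAA. Unfolded protein in the endoplasmic reticulum (ER) raises the ER members through Atf6 and Xbp1, with Atf6 acting at the ER stress response element. In muscle, small heat-shock proteins sit at the contractile apparatus, and Bag3 with Hspb8 removes damaged structural proteins.

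Those 2 elements were looked up in RefSeq promoter windows of build GRCm38.p6, from 250 bases before to 50 after the start of a gene, which were at hand for 57 of the 70 members. The other 13, among them Hspa8, Hsp90aa1, Hsp90ab1, Hspa9 and Hspa13, were not searched. The ER stress response element was searched as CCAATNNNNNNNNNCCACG and the heat-shock element as GAANNTTCNNGAA, both on either strand, and no member had both. The ER element lay in the windows of 3 members, Hspa5, Hsp90b1 and Dnajc3, against 0.137% of all 27025 genes with a window. All 3 encode ER proteins, and their stretches are shown because the ER members are followed as a group in what comes next. Capitals mark the fixed letters of the element, read 5′ to 3′ on the strand of the gene.
Hspa5, chr2:34771990-34772089, plus strand: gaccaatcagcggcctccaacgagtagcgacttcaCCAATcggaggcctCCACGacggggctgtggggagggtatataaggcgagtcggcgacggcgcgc
Hsp90b1, chr10:86705515-86705674, minus strand: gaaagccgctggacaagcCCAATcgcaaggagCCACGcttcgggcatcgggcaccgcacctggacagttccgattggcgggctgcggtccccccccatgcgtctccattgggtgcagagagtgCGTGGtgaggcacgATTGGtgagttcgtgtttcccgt
Dnajc3, chr14:118937812-118937911, plus strand: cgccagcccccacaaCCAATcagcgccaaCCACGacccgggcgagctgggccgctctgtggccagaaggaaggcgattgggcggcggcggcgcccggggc
The Hsp90b1 stretch holds the element once in each orientation. The heat-shock element lay in the windows of 4 members, Dnajb6, Hspd1, Hspe1 and Hsph1, against 0.662% of all genes with a window. Hspd1 and Hspe1 lie head to head, so the same stretch between them is counted for both, and it is shown because these genes moved together between libraries. It holds 2 matches that overlap, and capitals mark their fixed GAA and TTC units.
Hspe1, chr1:55088053-55088082, plus strand: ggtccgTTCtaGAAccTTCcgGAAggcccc
The matches are descriptions of the letters in these windows and not measured binding sites.

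The Twist2 libraries held 10902318 and 12425426 reads in Tw2pos and 13205751 and 13005707 in Tw2neg, recovered from the deposited normalised counts. The part of the Pax7 libraries in the CPM table held 6016469 reads in Pax7pos and 7565797 in Pax7neg. All 5 tendon markers and 4 of 6 markers of fibro-adipogenic progenitors rose in Tw2pos against Tw2neg, and all 18 leukocyte markers fell, with summed normalised counts of 2594 and 3015 in Tw2pos and 99567 and 96659 in Tw2neg. Satellite cell markers summed to 2477 CPM in Pax7pos and 127 CPM in Pax7neg over the 5 of 6 markers in the CPM table. Below, the values of a group are given in the order replicate 1, replicate 2.

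Per kilobase of exon, the most abundant members were the same in both Twist2 fractions. In Tw2pos, Hspa1b averaged 9101 normalised counts per kb, Hsp90ab1 8732, Hspa5 7582 and Hspa1a 5814. In Tw2neg the averages were 11059 for Hspa1b, 8932 for Hsp90ab1, 8077 for Hspa1a and 4689 for Hspa5. Hspa1a and Hspa1b encode nearly the same heat-inducible Hsp70, so how reads were split between them is uncertain. They lie side by side at chr17:34969190-34972156 and chr17:34956436-34959238 on the minus strand of GRCm38 (GENCODE M21), with Hspa1l next to them at chr17:34972703-34979285 on the plus strand. By contrast, Hsp90ab1 encodes the constitutive cytosolic Hsp90 and Hspa5 the ER Hsp70, BiP. The share of reads that fell to all members together was 0.962% and 1.49% for Tw2pos, against 1.22% and 2.02% for Tw2neg. In each group replicate 2 had the larger share. At the low end, 7 members stayed under the minimum mean of 10 normalised counts and were not tested. Dnajb7, Dnajb8 and Hspb3 had no read in any of the 4 libraries, and a count of 0 allows up to 3 reads, counting error only. Dnajc22 had 0 and 0 reads in Tw2pos and 19 and 5 in Tw2neg, Dnajb13 had 0 and 1 in Tw2pos and 6 and 10 in Tw2neg, and Dnajb3 and Hspb9 had at most 2 reads in any library.

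In Tw2pos against Tw2neg, small heat-shock proteins of muscle and chaperones of the ER were among the genes that rose, and J proteins and Hsp70 relatives of the ribosome, chromatin and vesicle coats were among those that fell. Of 63 members tested with limma, 16 passed an adjusted p of 0.05, 9 higher and 7 lower in Tw2pos. Over all 14155 genes tested the share that passed was 38.6%, with 18.7% higher and 20.0% lower, and the 16 of 63 members lay below that share. The median log2 fold change was -0.10 over the members and -0.045 over all genes. The libraries of Tw2pos and Tw2neg did not overlap for 37 of the 63 members, against 76.3% of all genes. Scaling the reads by library totals moved the median of all genes to -0.49. It gave 4 members higher and 18 lower, with 48.5% of all genes past the threshold. Quantile normalization moved that median to 0.10. It gave 12 members higher and 3 lower, with 39.2% of all genes past the threshold. The split by direction thus depends on the scaling. Leaving out Tw2pos replicate 1 or Tw2pos replicate 2 left 2 members past the threshold each time, with 20.0% and 18.2% of all genes.

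**Figure D1:**
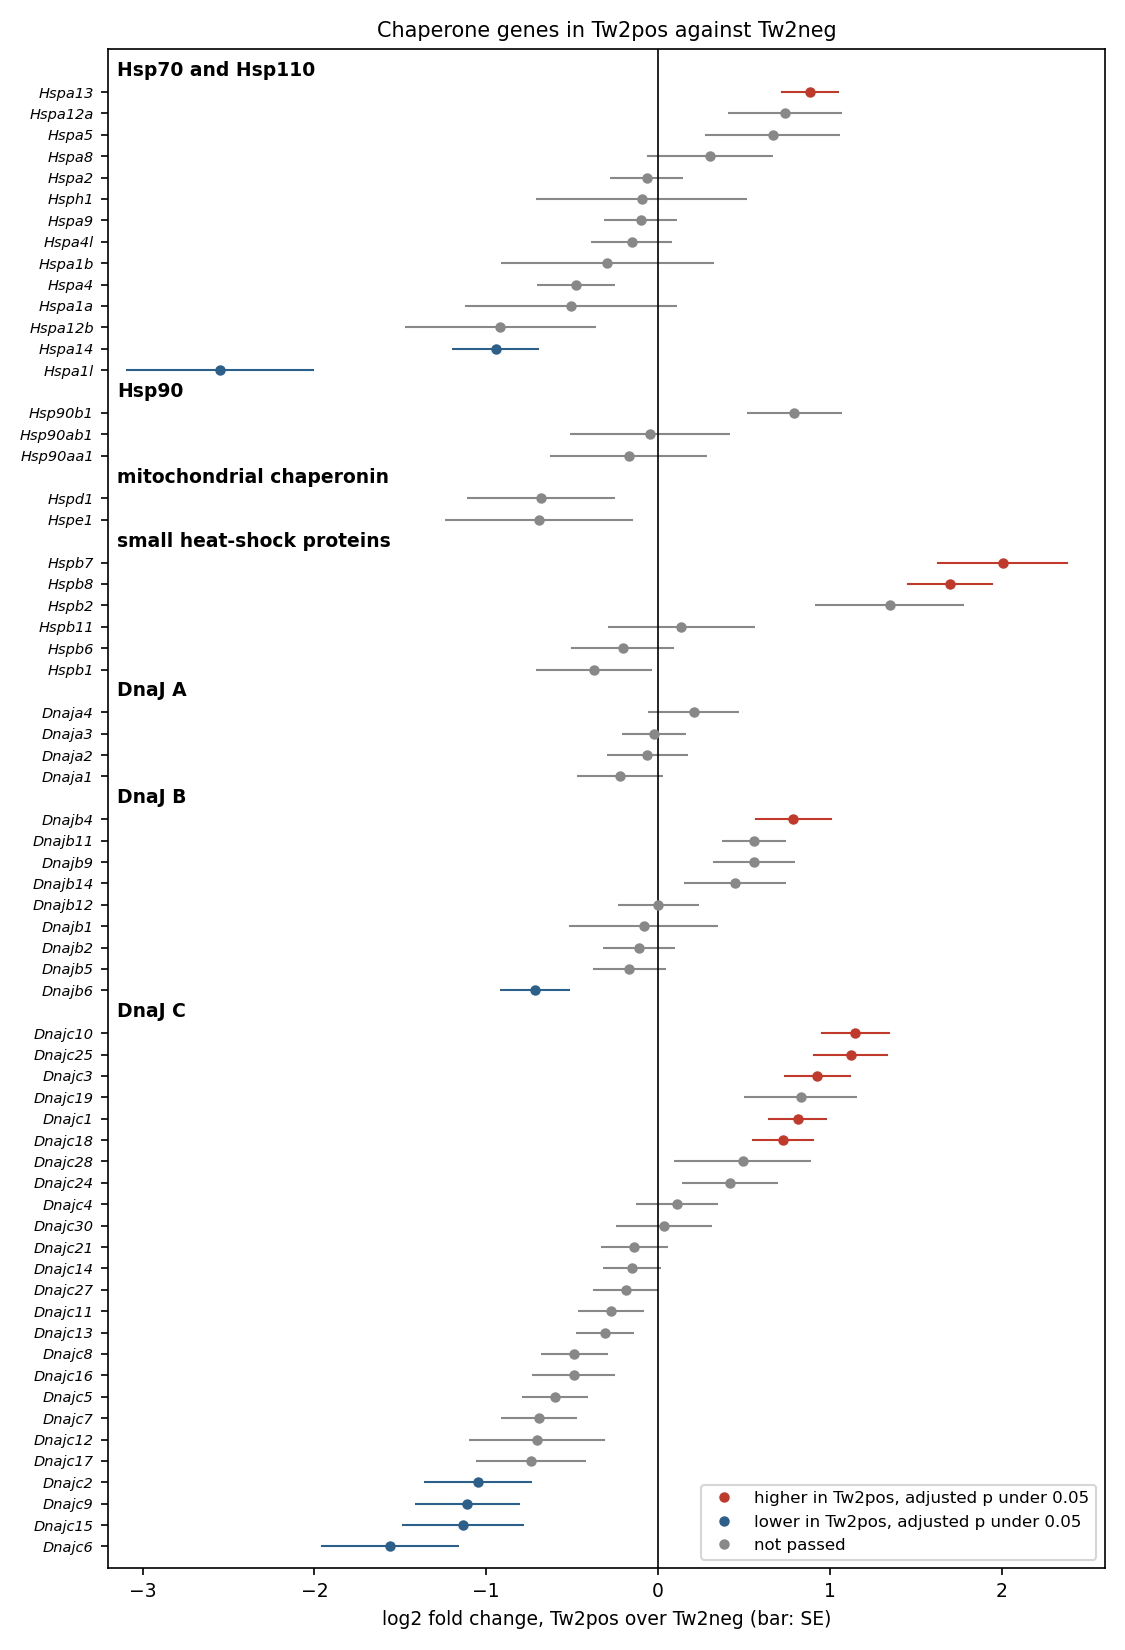
Log2 fold change of normalised counts, Tw2pos over Tw2neg, for the 63 members tested, grouped by family, with bars for the standard error (2 libraries a group). Red points rose and blue points fell at an adjusted p under 0.05. Hspb7 at 2.01 and Hspb8 at 1.70 lie highest and Hspa1l at -2.55 lowest. Among grey points, direction flipped after quantile normalization for Hspa5, Hspa8, Hspa2, Hspa4l, Hspb6, Dnaja3 and Dnajc21, and after scaling by library totals for Hspa8, Hspb11, Dnaja4, Dnajb12, Dnajc4, Dnajc24 and Dnajc30.

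Small heat-shock proteins gave the largest rises among the members. Hspb8, at chr5:116408491-116422864 on the minus strand, works with Bag3 to clear damaged proteins. It had 1745 and 2767 normalised counts in Tw2pos and 681 and 671 in Tw2neg. Both Tw2pos libraries lay far above both Tw2neg libraries, and the log2 fold change was 1.70 ± 0.25 (SE), with an adjusted p of 0.00486. Hspb8 was the only one of the 16 members that passed under every one of the 12 alternatives run, with adjusted p between 3.3e-07 and 0.024. Hspb7, a small heat-shock protein of heart and skeletal muscle at chr4:141420779-141425311 on the plus strand, had 135 and 125 normalised counts in Tw2pos and 43.1 and 23.2 in Tw2neg. Its groups did not overlap either, and it rose by 2.01 ± 0.38 on the log2 scale (adjusted p = 0.0108). Without Tw2pos replicate 1 the adjusted p of Hspb7 was 0.0566, and without Tw2pos replicate 2 it was 0.0502. Hspb2, a muscle-restricted member that lies beside Cryab, had 93.1 and 65.1 normalised counts in Tw2pos and 41.5 and 21.6 in Tw2neg, which gave 1.35 ± 0.43 on the log2 scale and an adjusted p of 0.0527. Its exons overlap those of Cryab on the other strand, and no source here says whether counting used strand, so reads of these genes cannot be told apart. Hspb6, a small heat-shock protein of smooth and cardiac muscle, had 79.0 and 67.5 normalised counts in Tw2pos and 96.0 and 74.4 in Tw2neg, with overlapping groups (log2 fold change -0.21, and 0.13 after quantile normalization, adjusted p = 0.611 and 0.737). Hspb1, the widely expressed Hsp27 relative, overlapped too, with 906 and 1793 in Tw2pos and 1504 and 1812 in Tw2neg.

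A partner and a relative of Hspb8 outside the symbol rule also rose. Bag3, its co-chaperone, had 6256 and 11033 normalised counts in Tw2pos and 3341 and 3634 in Tw2neg, and rose by 1.25 (adjusted p = 0.0259). Cryab, the small heat-shock protein alpha-B-crystallin, had 1205 and 2118 in Tw2pos and 579 and 720 in Tw2neg, and rose by 1.31 (adjusted p = 0.0194). Without Tw2pos replicate 2 the adjusted p was 0.196 for Bag3 and 0.117 for Cryab, and without Tw2neg replicate 1 it was 0.0638 and 0.0614. Bag3 also had 0.0672 without Tw2neg replicate 2 and 0.0587 after quantile normalization. Markers of myofibres summed to 488 and 813 normalised counts in Tw2pos and 242 and 163 in Tw2neg, and 4 of 6 rose. The 6 markers of pericytes and smooth muscle summed to 13993 and 7954 in Tw2pos and 15963 and 5220 in Tw2neg, and none passed. The part of these cell types in the small heat-shock protein values was not tested.

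Several ER chaperones were higher in Tw2pos. Of the 8 ER members, 4 rose and none fell, where 18.7% of all genes rose and 20.0% fell. Their median log2 fold change was 0.80, against -0.045 over all genes. This list does not hold every ER member. Among the J proteins of the ER that it leaves out, Dnajc18 rose (0.73). Dnajc14 (-0.15), Dnajb12 (0.0006), Dnajb14 (0.45) and Dnajc16 (-0.49) did not pass. Dnajc10, which reduces disulfide bonds of proteins bound for degradation, had 2033 and 1896 normalised counts in Tw2pos and 1011 and 776 in Tw2neg (log2 fold change 1.15 ± 0.20, adjusted p = 0.00812). Dnajc3, a co-chaperone of BiP whose promoter stretch is given above, had 3603 and 4115 in Tw2pos and 2148 and 1908 in Tw2neg (0.93 ± 0.19, adjusted p = 0.0147). The replicates of these genes lay close together, and the groups were well apart. Hspa13, an Hsp70 relative found with microsomes, had 960 and 1024 normalised counts in Tw2pos and 557 and 517 in Tw2neg (0.89 ± 0.17, adjusted p = 0.0111). Dnajc1, a J protein of the ER membrane that contacts the ribosome, had 923 and 990 in Tw2pos and 568 and 521 in Tw2neg (0.81 ± 0.17, adjusted p = 0.0150). Each of these 4 genes lost its call without Tw2pos replicate 1, with adjusted p from 0.0627 for Dnajc10 to 0.121 for Dnajc1, and without Tw2pos replicate 2 the adjusted p was 0.0488 for Dnajc10, 0.162 for Dnajc3, 0.135 for Hspa13 and 0.171 for Dnajc1. After scaling by library totals only Dnajc10 of the 8 passed, and the median of the ER members was then 0.35, against -0.49 over all genes.

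The most abundant ER chaperones did not pass. Hspa5 had 26041 and 38092 normalised counts in Tw2pos and 19202 and 20460 in Tw2neg. Both Tw2pos libraries lay above both Tw2neg libraries, and the log2 fold change was 0.67 ± 0.39 (adjusted p = 0.223), but -0.23 after quantile normalization. Hsp90b1, the ER Hsp90 known as Grp94, had 11580 and 14056 in Tw2pos and 6645 and 8151 in Tw2neg (0.79 ± 0.28, adjusted p = 0.0650). Dnajb11, a soluble co-chaperone of BiP, had 1080 and 1300 in Tw2pos and 770 and 839 in Tw2neg (0.56, adjusted p = 0.0565), and Dnajb9, which targets misfolded proteins for ER-associated degradation, had 1401 and 2018 in Tw2pos and 1038 and 1258 in Tw2neg (0.56, adjusted p = 0.112). In all 4 the groups did not overlap, as held for 76.3% of all genes tested. Outside the family, 4 of 17 other ER folding genes rose and none fell (median 0.47), where 18.7% of all genes rose. That count was 1 higher and 1 lower after scaling by library totals (median 0.020), 2 higher after quantile normalization, 1 without Tw2pos replicate 1 and 0 without Tw2pos replicate 2, and 4 to 7 under the other alternatives. Among the 4 were Serpinh1, the collagen chaperone Hsp47, with 23688 and 26772 normalised counts in Tw2pos and 9422 and 5506 in Tw2neg, and Pdia3, a disulfide isomerase of glycoproteins, with 7785 and 10006 in Tw2pos and 4360 and 4151 in Tw2neg. Serpinh1 rose by 1.81 (adjusted p = 0.0126) and Pdia3 by 1.05 (adjusted p = 0.0191). Without Tw2pos replicate 2 their adjusted p was 0.0718 and 0.203, after quantile normalization 0.0506 and 0.0730, and Pdia3 had 0.0779 without Tw2pos replicate 1 and 0.0606 after scaling by library totals. Markers of fibro-adipogenic progenitors, cells that secrete matrix, summed to 746341 and 932479 normalised counts in Tw2pos and 210366 and 163037 in Tw2neg, and their part in the ER values was not tested.

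Other J proteins that rose were Dnajc25, Dnajb4 and Dnajc18. Dnajc25, a J protein with a membrane span, had 288 and 333 normalised counts in Tw2pos and 148 and 136 in Tw2neg (log2 fold change 1.12 ± 0.22, adjusted p = 0.0113). Dnajb4, a cytosolic relative of Dnajb1 that is prominent in muscle, had 2513 and 3346 in Tw2pos and 1539 and 1833 in Tw2neg (0.79 ± 0.22, adjusted p = 0.0360). Dnajc18, anchored in the ER membrane, had 484 and 486 in Tw2pos and 302 and 284 in Tw2neg (0.73 ± 0.18, adjusted p = 0.0249). The groups did not overlap for any of them, as held for 76.3% of all genes tested. Without Tw2pos replicate 1 the adjusted p was 0.0803 for Dnajc25, 0.0913 for Dnajb4 and 0.221 for Dnajc18, without Tw2pos replicate 2 it was 0.149, 0.314 and 0.230 in that order, and without Tw2neg replicate 1 Dnajb4 had 0.0663. After scaling by library totals Dnajb4 and Dnajc18 did not pass, with adjusted p of 0.227 and 0.291.

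The members that fell were mostly of low or middle abundance. Hspa1l, an Hsp70 gene next to Hspa1a that is best known from testis, had 5.1 and 2.41 normalised counts in Tw2pos and 23.6 and 28.0 in Tw2neg. It fell by 2.55 ± 0.55 on the log2 scale (adjusted p = 0.0159), and without Tw2pos replicate 2 the adjusted p was 0.0667. Dnajc6, the auxilin that strips clathrin from vesicles, had 12.7 and 12.1 in Tw2pos and 35.0 and 42.4 in Tw2neg (-1.56 ± 0.40, adjusted p = 0.0272). Gak, the relative of auxilin found in most cells, had 884 and 879 normalised counts in Tw2pos and 1430 and 1745 in Tw2neg and also fell (-0.84, adjusted p = 0.0166, but 0.133 without Tw2pos replicate 1 and 0.141 without Tw2pos replicate 2). Both uncoating genes were thus lower in both Tw2pos libraries than in both Tw2neg libraries. The groups were apart in 1 direction or the other for 76.3% of all genes tested.

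Dnajc2 and Hspa14, whose proteins form the ribosome-associated complex that meets new chains, both fell. Dnajc2 had 164 and 147 normalised counts in Tw2pos and 243 and 429 in Tw2neg (-1.05 ± 0.31, adjusted p = 0.0429), and Hspa14 had 431 and 385 in Tw2pos and 629 and 978 in Tw2neg (-0.94 ± 0.25, adjusted p = 0.0310). In each, Tw2neg replicate 2 lay well above Tw2neg replicate 1, and the groups did not overlap, as held for 76.3% of all genes tested. Dnajc9, a chaperone of histones, had 156 and 170 in Tw2pos and 268 and 465 in Tw2neg (-1.11 ± 0.31, adjusted p = 0.0333). Dnajb6, which holds back protein aggregates and is mutated in a human muscular dystrophy, had 270 and 323 in Tw2pos and 455 and 519 in Tw2neg (-0.72 ± 0.20, adjusted p = 0.0357). Without Tw2pos replicate 1 the adjusted p of the fallen members other than Hspa1l lay between 0.103 and 0.314, and without Tw2pos replicate 2 between 0.113 and 0.243. Without Tw2neg replicate 2 Dnajb6, Dnajc2, Dnajc6, Dnajc9 and Dnajc15 did not pass, with adjusted p of 0.0704, 0.0793, 0.0620, 0.0566 and 0.126 in that order, and after quantile normalization these same 5 genes did not pass (adjusted p from 0.0647 to 0.136). Proliferation markers, which move with histone genes, summed to 569 and 281 normalised counts in Tw2pos and 2577 and 3423 in Tw2neg, and all 5 fell, as did the leukocyte markers given above. Their part in these values was not tested.

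Mitochondrial members showed no rise that passed in the limma fit used above. Of 8, Dnajc15 alone fell, where 20.0% of all genes fell, and the median was -0.19. After quantile normalization 1 of the 8 was higher and 0 lower, and so it was without the mean-variance trend of limma. Scaling by library totals gave 0 higher and 3 lower, with the median of all genes at -0.49. Dnajc15, an inner membrane protein known to slow respiration, had 71.4 and 59.1 normalised counts in Tw2pos and 108 and 191 in Tw2neg (-1.13 ± 0.36, adjusted p = 0.0492). Dnajc19, a J protein of the inner membrane import motor, had 63.7 and 54.3 in Tw2pos and 31.7 and 33.6 in Tw2neg, the opposite direction, without passing (0.83, adjusted p = 0.0927). Hspa9, the Hsp70 of the matrix, had 2118 and 2395 in Tw2pos and 2114 and 2763 in Tw2neg, with overlapping groups (-0.10, adjusted p = 0.731). Hspd1 had 965 and 1856 in Tw2pos and 1520 and 3032 in Tw2neg, and Hspe1 had 214 and 452 in Tw2pos and 307 and 828 in Tw2neg. In both chaperonin genes Tw2pos replicate 2 exceeded Tw2neg replicate 1, and neither passed (-0.68 and -0.69, adjusted p = 0.252 and 0.351). The exons of Hspd1 and Hspe1 overlap at their starts on opposite strands, so some of their reads are uncertain.

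The cytosolic members known from the heat-shock response, a list that also holds the constitutive Hsp90ab1 and Hspa8 and is called heat-inducible for short, did not as a group separate Tw2pos from Tw2neg. Of 10 members, 1 rose, Dnajb4, and none fell, where 18.7% of all genes rose and 20.0% fell. Their median log2 fold change was -0.13. Hspa1a had 9609 and 24891 normalised counts in Tw2pos and 14438 and 33492 in Tw2neg, and Hspa1b had 15031 and 35988 in Tw2pos and 18876 and 43120 in Tw2neg. Hsph1, the Hsp110 that recharges Hsp70 with ATP, had 3004 and 7895 in Tw2pos and 3154 and 8582 in Tw2neg. In each of these genes replicate 2 of either group lay above replicate 1 of both groups. Dnajb1, the main stress-induced partner of Hsp70, had 5213 and 10656 in Tw2pos and 6111 and 10203 in Tw2neg. Hsp90aa1, the inducible cytosolic Hsp90, had 2879 and 5444 in Tw2pos and 3041 and 6527 in Tw2neg, and Hsp90ab1 had 19280 and 33094 in Tw2pos and 20788 and 32787 in Tw2neg. Hspa8, the constitutive Hsp70, had 6304 and 10933 in Tw2pos and 5456 and 8304 in Tw2neg, or 0.30 on the log2 scale, a difference that was -0.15 after scaling by library totals and -0.28 after quantile normalization. The log2 fold changes of Hspa1a, Hspa1b, Hsph1, Dnajb1, Hsp90aa1 and Hsp90ab1 ran from -0.51 to -0.05, with adjusted p from 0.546 to 0.943, and every one of these turned positive without Tw2pos replicate 1 and without Tw2neg replicate 2. For Hsph1 the log2 fold change was -0.10 ± 0.61, and it was 0.60 without Tw2pos replicate 1 and 0.63 without Tw2neg replicate 2. Such standard errors leave room for sizeable changes in either direction.

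**Figure D2:**
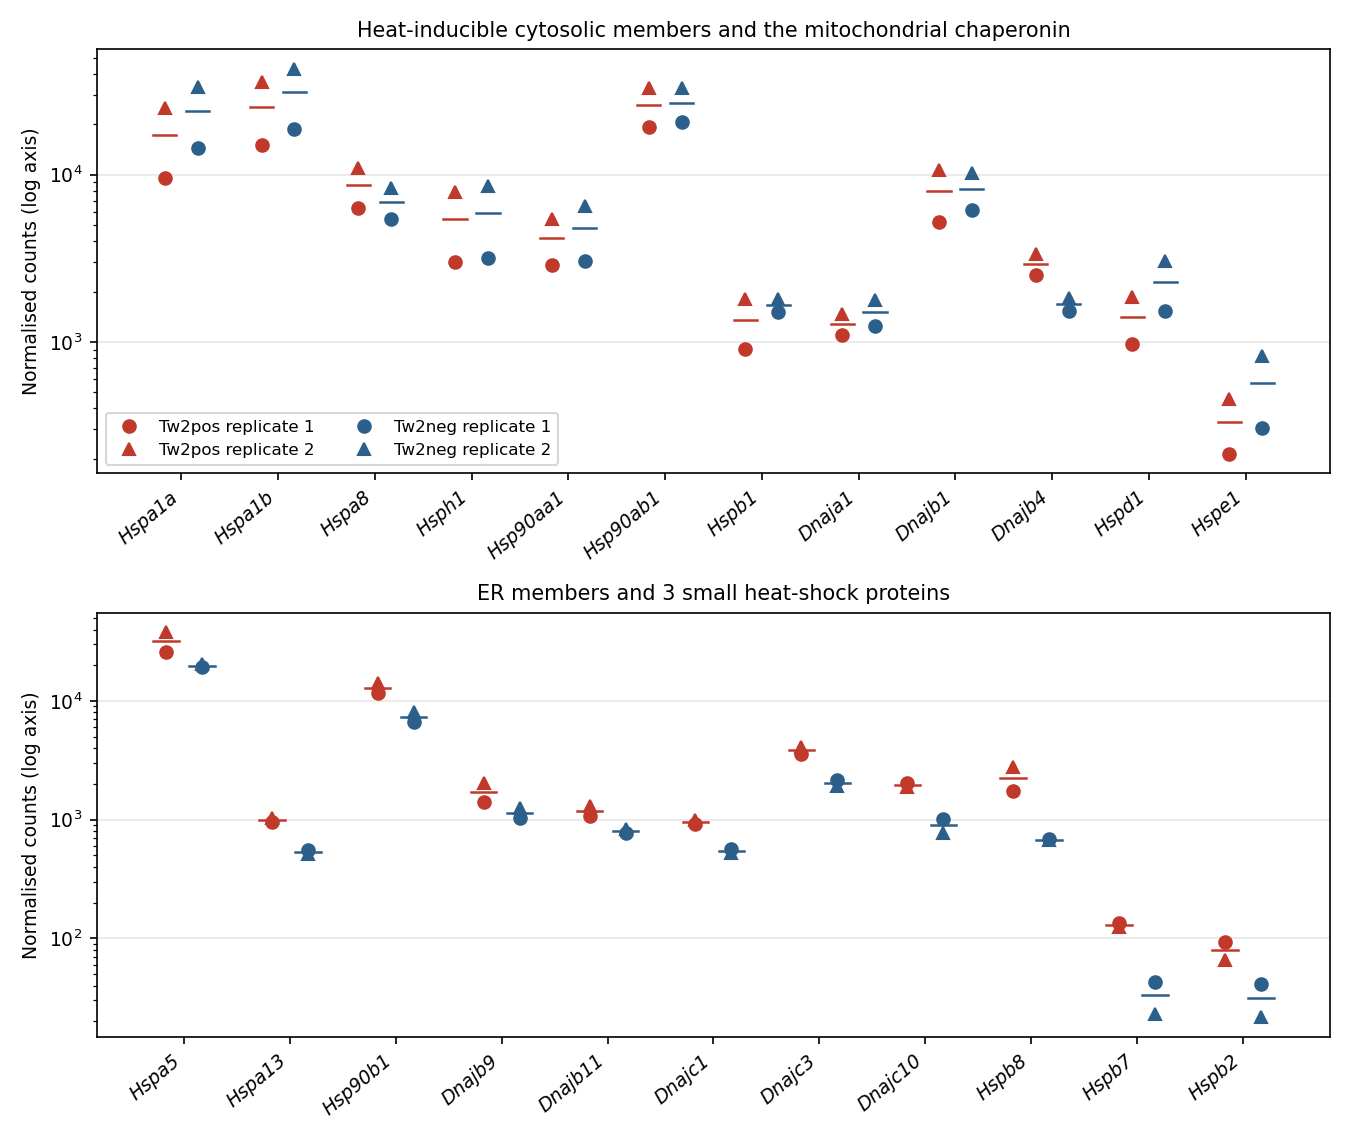
Normalised counts on a log axis in the 4 Twist2 libraries, with red for Tw2pos, blue for Tw2neg, circles for replicate 1, triangles for replicate 2 and a short line at the mean of each group. For Hspa1a, Hsph1 and Hspe1 in the upper panel the triangles of both groups lie above the circles, as with 10656 against 5213 for Dnajb1 in Tw2pos. In the lower panel the colours are apart, as for Hspb8 and Dnajc10.

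The difference that did run through the heat-inducible members was between replicates, a pattern singled out after its values were seen. In both Tw2pos and Tw2neg, replicate 2 lay above replicate 1 for 10 of 10 members of the heat-inducible list, the constitutive Hsp90ab1 and Hspa8 included, which held for 28.2% of all genes tested. The ratio of replicate 2 to replicate 1 was 2.63 in Tw2pos and 2.72 in Tw2neg for Hsph1, 2.59 and 2.32 for Hspa1a, and 2.39 and 2.28 for Hspa1b. The chaperonin genes followed, with 2.11 in Tw2pos and 2.70 in Tw2neg for Hspe1, and 1.92 and 1.99 for Hspd1. In 4 members, Hsph1, Hspa1a, Hspa1b and Hspe1, the ratio reached 2 in both groups, as it did for 0.678% of all genes. Reads of Hspa1a and Hspa1b together made up 0.177% and 0.406% of the Tw2pos libraries, against 0.310% and 0.737% of the Tw2neg libraries. With 2 libraries a group, no test of this difference was made.

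Other chaperone lists also held genes with this direction, with smaller median differences. Replicate 2 lay above replicate 1 in both groups for 33 of all 63 members, these 10 included, 7 of 8 genes of the cytosolic chaperonin TRiC, which folds actin and tubulin, 14 of 19 cofactors of Hsp70 and Hsp90, 12 of 17 other ER folding genes and 4 of 8 ER members. The median log2 difference, replicate 2 minus replicate 1, was 0.95 in Tw2pos and 0.70 in Tw2neg over the heat-inducible members. It was 0.23 in Tw2pos and -0.0086 in Tw2neg over the ER members, and 0.12 in Tw2pos and 0.20 in Tw2neg over all 63 members. Over the TRiC genes it was 0.16 in Tw2pos and 0.54 in Tw2neg. Immediate-early genes, which dissociation of a tissue is known to induce, ran the other way, at -0.19 in Tw2pos and -0.54 in Tw2neg, and 0 of 10 lay above in both groups. Lymphocyte markers lay above in both groups for 6 of 6 genes, at 0.63 in Tw2pos and 1.22 in Tw2neg, although in Tw2pos they summed to only 76.5 and 125 normalised counts. The part of these differences in the heat-shock values was not tested.

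**Figure D3:**
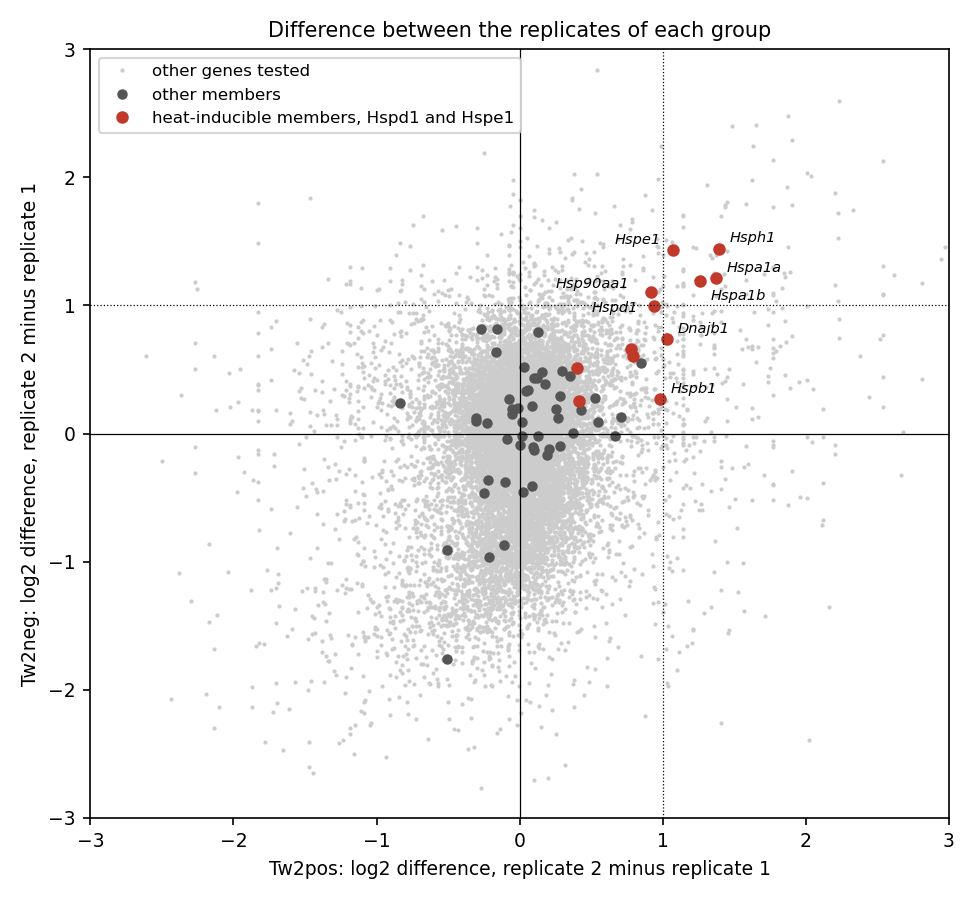
Each point is a gene, with the log2 difference between replicate 2 and replicate 1 in Tw2pos on the horizontal axis and in Tw2neg on the vertical axis. Dotted lines mark a 2-fold difference, and 32 genes, none of them a member, lie outside the axes. The heat-inducible members with Hspd1 and Hspe1, in red, lie in the upper right, with Hsph1 at 1.39 and 1.44.

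Among the partners of these chaperones, few genes passed in Tw2pos against Tw2neg. Of 19 cofactors of Hsp70 and Hsp90, 2 rose and 1 fell (median -0.011), where 18.7% of all genes rose and 20.0% fell. They were Bag3, Fkbp5, a glucocorticoid-induced Hsp90 cofactor (0.89, adjusted p = 0.0173), and Unc45a, a myosin co-chaperone (-0.59, adjusted p = 0.0364). None of the 8 TRiC subunits (median -0.31) and none of the 5 prefoldin subunits (median 0.029) passed. After scaling by library totals, 5 TRiC subunits (median -0.76), 2 prefoldin subunits and 6 cofactors were lower and 1 cofactor was higher. The median of all genes was then -0.49, and 48.5% of all genes passed. The calls among TRiC subunits and cofactors also changed without Tw2neg replicate 1, a fit with a lone Tw2neg library. Of the heat-shock factor genes, Hsf1 had 470 and 595 normalised counts in Tw2pos and 608 and 653 in Tw2neg, without passing (-0.25, adjusted p = 0.346). Hsf4 rose at low level, with 68.8 and 68.7 in Tw2pos and 33.3 and 31.2 in Tw2neg (1.07, adjusted p = 0.0413). Hsbp1, which binds heat-shock factors, rose too, with 797 and 908 in Tw2pos and 448 and 501 in Tw2neg (0.84, adjusted p = 0.0160). Without Tw2pos replicate 1 or Tw2pos replicate 2, Fkbp5, Unc45a, Hsf4 and Hsbp1 did not pass, with adjusted p from 0.0649 for Fkbp5 to 0.294 for Unc45a, and after scaling by library totals Fkbp5, Hsf4 and Hsbp1 did not (0.102, 0.172 and 0.135 in that order). Hsf4 had 0.0649 without Tw2neg replicate 2.

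The CPM table brings in the Pax7 line, but its genes were chosen on these libraries. Every gene in it reached 10 CPM in at least 3 libraries and, in the authors' deposited table, a 2-fold difference from Tw2neg in Pax7neg, Pax7pos or Tw2pos. Of the 29 members in the table, 21 met that fold only in Pax7pos against Tw2neg, among them Hspa5, Hsp90b1, Hspa9, Hsph1, Hspb1 and Dnajb1. The counts, medians and p-values of such members in any comparison with Pax7pos are partly set by that choice, so they describe these libraries and support nothing further. The same holds, in comparisons with Tw2pos, for members that met the fold in Tw2pos, such as Dnajc10 and Hspb8. Genes outside the family in this table were chosen by the same rule. The other 41 members, among them Hspa1a, Hspa1b and Hspd1, have no Pax7 values analysed here. The comparisons with Pax7pos and Pax7neg share these lone libraries, and the spread is taken from the Twist2 libraries on the assumption that the Pax7 libraries vary alike.

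Among the 29 members so chosen, most were lower in Tw2pos than in Pax7pos, with Hsph1, Hspb1, Hspe1, Hspa9 and Hspa5 the most so. In Tw2pos, 4 members were higher and 18 lower by limma, 22 of 29, where 58.8% of all genes in the table passed, 33.7% higher and 25.1% lower. The median log2 difference of CPM was -1.31 over the members and 0.41 over all 4939 genes. Without Tw2pos replicate 1, 9 members passed, with 33.6% of all genes. Quantile normalization moved the median of all genes to -0.15 and gave 2 members higher and 15 lower, with 37.7% of all genes passing.

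Among ER members, Hspa5 had 2103 and 3078 CPM in Tw2pos and 11181 CPM in Pax7pos, a log2 difference of -2.14 ± 0.52 (adjusted p = 0.00981). The Pax7pos value was the highest CPM among the 29 members of this table. Hsp90b1 had 935 and 1136 CPM in Tw2pos and 2363 CPM in Pax7pos (-1.20, adjusted p = 0.0340), and Dnajb9 had 113 and 163 CPM in Tw2pos and 310 CPM in Pax7pos (-1.19, adjusted p = 0.0207). Dnajc3 had 291 and 332 CPM in Tw2pos and 452 CPM in Pax7pos and did not pass (-0.54, adjusted p = 0.177). Of the ER list, Dnajc10 alone was higher in Tw2pos, with 164 and 153 CPM in Tw2pos and 54.5 CPM in Pax7pos (1.52 ± 0.32, adjusted p = 0.00545). Dnajc10 is in the table only through Tw2pos against Tw2neg, and Hspa5, Hsp90b1, Dnajb9 and Dnajc3 only through Pax7pos against Tw2neg. All these values are thus partly set by that choice and support nothing further. Dnajc14, an ER membrane protein outside the list, was higher in Tw2pos too and is given below. Hspa5 without Tw2pos replicate 1 had an adjusted p of 0.0738, Hsp90b1 had 0.218 and Dnajb9 0.211, and Hsp90b1 without Tw2pos replicate 2 had 0.114. After quantile normalization Dnajb9 had 0.0873.

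Cytosolic and mitochondrial members ran the same way. Hsph1 had 243 and 638 CPM in Tw2pos and 2482 CPM in Pax7pos (-2.65 ± 0.71, adjusted p = 0.0145), and Dnajb1 had 421 and 861 CPM in Tw2pos and 2021 CPM in Pax7pos (-1.75 ± 0.54, adjusted p = 0.0244). Hspa9 had 171 and 194 CPM in Tw2pos and 916 CPM in Pax7pos (-2.33 ± 0.34, adjusted p = 0.00115), and Hspe1 had 17.3 and 36.5 CPM in Tw2pos and 137 CPM in Pax7pos (-2.40 ± 0.62, adjusted p = 0.0125). In all 4, both Tw2pos libraries lay far below the Pax7pos library. Hspb1 had 73.2 and 145 CPM in Tw2pos and 549 CPM in Pax7pos (-2.40 ± 0.44, adjusted p = 0.00297). Hsp90ab1 had 1557 and 2674 CPM in Tw2pos and 5296 CPM in Pax7pos but did not pass (-1.38, adjusted p = 0.0697). Dnajb1 without Tw2pos replicate 1 had an adjusted p of 0.139, and Hspe1 after quantile normalization one of 0.0526. The TRiC subunits moved alike, with 8 of 8 lower in Tw2pos (median -1.62), where 25.1% of all genes in the table were lower. Hsf1 had 38.0 and 48.0 CPM in Tw2pos and 122 CPM in Pax7pos (-1.49, adjusted p = 0.00591). Hsph1, Dnajb1, Hspa9, Hspb1 and Hsp90ab1 are in this table only because Pax7pos was high against Tw2neg, and Hspe1 met the fold there too. The values of these members, and the TRiC and Hsf1 values too, are partly set by the choice of genes in this table. They support nothing further.

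The members higher in Tw2pos were Hspa12b, Hspb8, Dnajc10 and Dnajc14. Their values are partly set by the choice of genes in this table, so they support nothing further. Dnajc14 is in it only because Pax7pos was low against Tw2neg, and Hspa12b met the fold there too. Hspa12b, an Hsp70 relative known from endothelium, had 29.97 and 21.05 CPM in Tw2pos and 3.03 CPM in Pax7pos (2.70 ± 0.65, adjusted p = 0.00964, but 0.0614 with a pseudocount of 10 and 0.212 after quantile normalization). Endothelial markers summed to 490 and 356 CPM in Tw2pos and 113 CPM in Pax7pos, and their part in this value was not tested. Hspb8 had 141 and 224 CPM in Tw2pos and 60.2 CPM in Pax7pos (1.55 ± 0.36, adjusted p = 0.00821, and 0.102 without Tw2pos replicate 2). Dnajc14, a J protein of the ER membrane, had 48.1 and 48.6 CPM in Tw2pos and 18.3 CPM in Pax7pos (1.36 ± 0.31, adjusted p = 0.00760), and its adjusted p was 0.0997 without Tw2pos replicate 1, 0.0990 without Tw2pos replicate 2 and 0.106 after quantile normalization. Cryab and Bag3 did not go with Hspb8 here: Cryab had 97.3 and 171 CPM in Tw2pos and 593 CPM in Pax7pos (-2.19, adjusted p = 0.00310), and Bag3 had 505 and 891 CPM in Tw2pos and 1561 CPM in Pax7pos (-1.22, adjusted p = 0.0408).

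**Figure D4:**
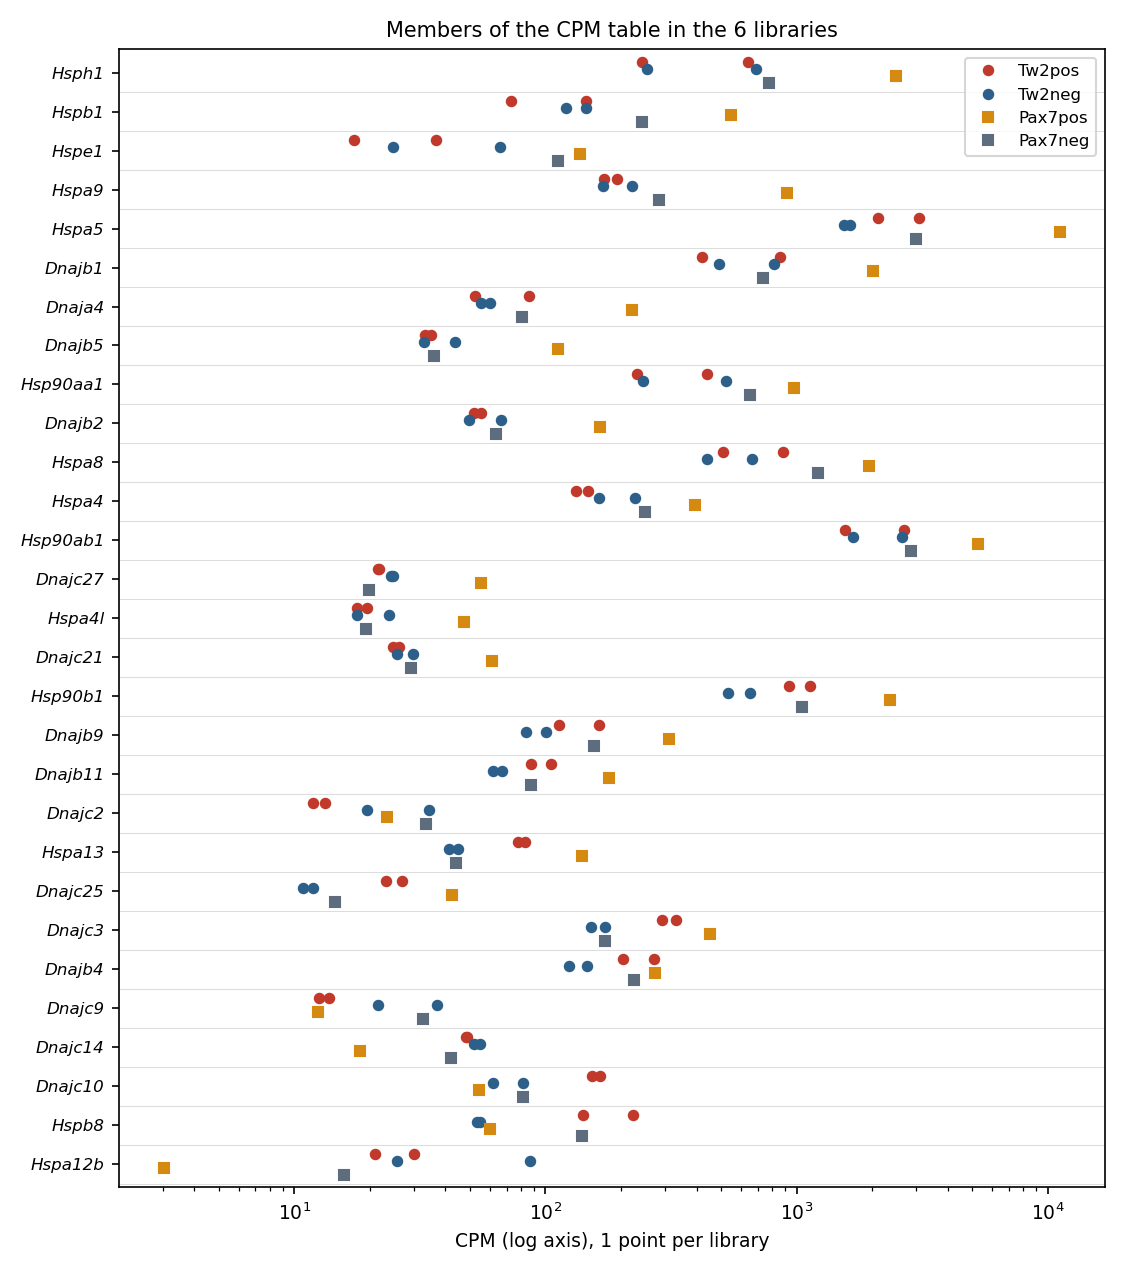
CPM on a log axis for the 29 members of the CPM table, 1 point per library, with genes ordered by the log2 difference of Tw2pos and Pax7pos. The Pax7pos square lies right of all others for most genes, as for Hspa5 at 11181 CPM, and left of all others for Hspa12b at 3.03 CPM and Dnajc14 at 18.3 CPM.

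Within the Pax7 line, Pax7pos and Pax7neg have 1 library each, so there is no replicate check and no test. The log2 difference of CPM + 10 reached 1 in size for 14 of the 29 members, 13 higher and 1 lower in Pax7pos, against 51.3% of all genes in the table, 18.3% higher and 33.0% lower. Among members higher in Pax7pos the ratio was largest for Hspa5, with 11181 CPM in Pax7pos and 2999 CPM in Pax7neg, a ratio of 3.73. Hspa12b, at low level, had a wider ratio in the other direction, with 3.03 CPM in Pax7pos and 15.7 CPM in Pax7neg. Hspa9 had 916 CPM in Pax7pos and 282 CPM in Pax7neg, Hsph1 had 2482 CPM in Pax7pos and 777 CPM in Pax7neg, and Hspa13 had 140 CPM in Pax7pos and 44.0 CPM in Pax7neg. For Hspa5, Hspa9, Hsph1 and Hspa13 these ratios were above 3. Hspe1, by contrast, had 137 CPM in Pax7pos and 113 CPM in Pax7neg, and Dnajb4 had 273 CPM in Pax7pos and 224 CPM in Pax7neg. Hspb8 was the member past the fold in the other direction on the scale of CPM + 10, with 60.2 CPM in Pax7pos and 139 CPM in Pax7neg. Of the immediate-early genes, 2 are in the CPM table and went opposite ways, Egr1 with 8267 CPM in Pax7pos and 1561 CPM in Pax7neg, and Nr4a1 with 646 CPM in Pax7pos and 1011 CPM in Pax7neg. Myofibre markers summed to 643 CPM in Pax7pos and 11.9 CPM in Pax7neg over 2 genes. Their part in the Pax7pos values was not tested.

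The unlabelled fractions of the lines gave no call among members. In Tw2neg against Pax7neg, limma called 0 of 29 members, with 0.0607% of all genes in the table, and edgeR called 0. By limma, 4 of the 29 members had an unadjusted p under 0.05, against 15.6% of all genes in the table. The median log2 difference over the members was -0.37, against -0.059 over all genes. Hspb8 had 54.7 and 53.6 CPM in Tw2neg and 139 CPM in Pax7neg (-1.35, adjusted p = 0.159), and Hspa8 had 438 and 664 CPM in Tw2neg and 1220 CPM in Pax7neg (-1.18, adjusted p = 0.298). Both Tw2neg libraries lay below Pax7neg for each. Without Tw2neg replicate 1, 1 member passed, with 21.2% of all genes, and without Tw2neg replicate 2, 4 members passed, with 18.1%, so these calls rest on the spread of that group.

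Within the same table, and so under the same choice of genes, the step from unlabelled to labelled cells differed between the lines for 6 of the 29 members, 2 with a larger difference in the Twist2 line and 4 with a smaller one, where 35.7% of all genes in the table passed, 23.2% higher and 12.5% lower. Hspb8 showed the largest difference of the steps. It had 141 and 224 CPM in Tw2pos and 54.7 and 53.6 CPM in Tw2neg, while it had 60.2 CPM in Pax7pos and 139 CPM in Pax7neg, so labelled cells were above unlabelled cells in the Twist2 line and below them in the Pax7 line (difference of log2 steps 2.89 ± 0.51, adjusted p = 0.00462). Dnajc10 was the other member with the larger step in the Twist2 line, and Hspa9, Dnajb5, Dnajc27 and Dnajb2 had the smaller step there. These last 4 are in the table only through Pax7pos against Tw2neg, so their difference is largely fixed by the choice. Dnajc10 is there only through Tw2pos against Tw2neg, and Hspb8 through that and Pax7neg, which bears on their values too. Of these 6, Hspb8 alone passed under all 9 alternatives run, with adjusted p up to 0.0115, while without Tw2pos replicate 1 the adjusted p of the other 5 lay between 0.119 and 0.252, and 1 of the 29 members passed.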

How the data were processed

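RNA was sequenced from 6 libraries of 4 groups. Per the file headers, the authors deposited normalised counts of the 4 Twist2 libraries (gene counts divided by DESeq2 size factors, a signal) and a table of 4939 genes with CPM of 6 libraries and log2 fold changes from Tw2neg. Per the submitters' processing notes, TopHat2 2.0.0, DESeq2 1.6.3 and GRCm38/mm10 were used; no source used here gives the read counter, the annotation or the use of strand. Whole reads were recovered for 100% of values (tolerance 0.01). Limma 3.58.1 with a mean-variance trend was fitted in R 4.3.3 to log2(normalised count + 1) of 14155 genes with a mean of at least 10, and to log2(CPM + 1) of all 4939 genes; p-values were adjusted by Benjamini-Hochberg over each whole table. Fold changes are on this log2(value + pseudocount) scale and understate changes of low genes. The design foresaw limma on these units; edgeR 4.0.16 and DESeq2 1.42.0 on recovered reads were alternatives. Scripts were tested on simulated data. Exon lengths came from GENCODE M21. The members and lists were chosen with earlier results of these data known. Members with values are the 3 most abundant of each family and those past the test with a log2 fold change of at least 1. The fixed heat-inducible, ER, mitochondrial and muscle lists and the members in the CPM table belong to them too. Dnajb6, Dnajc18 and Hspa14, which passed with smaller changes, and the low members were added after their values were seen. So were Dnajb12, Dnajb14 and Dnajc16, which did not pass. Intervals and floors cover counting error only. No column of per-sample values was left unmapped.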

Additional observations from a re-analysis of the deposited data

Results flagged for a closer look

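For 6 members the difference between labelled and unlabelled cells was not the same in the lines, by a test of the difference of the log2 steps (Twist2 line minus Pax7 line, limma, adjusted over 4939 genes, 1 library in each Pax7 group). Hspb8 had the largest, 2.89 (adjusted p = 0.00462), with log2 steps of 1.69 in the Twist2 line and -1.20 in the Pax7 line. Dnajc10 had 1.72 (adjusted p = 0.0225), with 1.15 in the Twist2 line and -0.57 in the Pax7 line. In both genes labelled cells were above unlabelled cells in the Twist2 line and below them in the Pax7 line. Hspa9 had -1.79 (adjusted p = 0.0236), with -0.090 in the Twist2 line and 1.70 in the Pax7 line. Dnajb5 had -1.76 (adjusted p = 0.0240), with -0.15 in the Twist2 line and 1.61 in the Pax7 line. Dnajc27 had -1.61 (adjusted p = 0.0309), with -0.17 in the Twist2 line and 1.44 in the Pax7 line. Dnajb2 had -1.46 (adjusted p = 0.0417), with -0.098 in the Twist2 line and 1.37 in the Pax7 line. In these 4 genes the step was near 0 in the Twist2 line and upward in the Pax7 line, and each is in the CPM table only because Pax7pos was at least 2-fold from Tw2neg, so these values are largely fixed by that choice and their p-values support nothing further. Hspb8 and Dnajc10 are in the table through Tw2pos against Tw2neg (in Hspb8 also through Pax7neg), which bears on their values too.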

How the results depend on the processing

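Of the 16 members called in Tw2pos against Tw2neg, 16 passed with edgeR on the recovered reads, 14 with DESeq2, 11 without the filter, 11 under either other scaling and 10 without the variance trend. Leave-one-out counts ranged from 2 to 21 there, from 9 to 27 in Tw2pos against Pax7pos, from 0 to 4 in Tw2neg against Pax7neg (4 at an unadjusted p under 0.05, added after seeing the data), and from 1 to 17 for the difference of the steps, which gave 3 after quantile normalization. Between Pax7pos and Pax7neg no member differed by a log2 size of 2 (0 of 29), against 18.4% of all genes in the table. With the replicate number as a block, 25 of 63 members passed in Tw2pos against Tw2neg (13 higher, 12 lower), the 16 among them. Of all genes, 46.8% passed with this block. Same-numbered libraries deviated together across genes (r = 0.26 over 14155 genes), but 2 pairs do not establish a pairing.

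No called member changed direction. Uncalled ones did. After quantile normalization the log2 fold change in Tw2pos against Tw2neg was 0.107 for Dnaja3, 0.0099 for Dnajc21, 0.0322 for Hspa4l, -0.2258 for Hspa5, -0.2752 for Hspa8 and 0.1302 for Hspb6, and that of Dnajc9 in Tw2pos against Pax7pos was -0.6499; the cause was not tested. Scaling by library totals lowers all genes together (median -0.49, against -0.045), and with that shift it was -0.2424 for Dnaja4, -0.4083 for Dnajc30 and -0.1470 for Hspa8. Leave-one-out ranges that cross 0 were -0.476 to 0.0348 for Dnaja1, -0.286 to 0.162 for Dnaja2, -0.123 to 0.075 for Dnaja3, -0.148 to 0.562 for Dnaja4, -0.599 to 0.432 for Dnajb1, -0.328 to 0.106 for Dnajb2, -0.369 to 0.0365 for Dnajb5, -0.0587 to 0.130 for Dnajc30, -0.721 to 0.381 for Hsp90aa1, -0.437 to 0.342 for Hsp90ab1, -1.19 to 0.179 for Hspa1a, -0.924 to 0.335 for Hspa1b, -0.369 to 0.0619 for Hspa4l, -0.0945 to 0.700 for Hspa8, -0.295 to 0.0911 for Hspa9, -0.864 to 0.119 for Hspb1, -1.41 to 0.022 for Hspe1 and -0.817 to 0.627 for Hsph1.

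Groups of 2 libraries, and of 1 in the Pax7 line, limit every comparison; a fit that leaves out a library assumes that the lone library of its group varies like the others.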
